A study of Drosophila melanogaster with 8 samples.

Results

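Wide H1 domains called in few replicate lists are described here. They are the regions of the authors' combined list that were 4000 bp or wider and that were touched, by at least 1 bp, by regions of at most 2 of the 4 replicate lists. There were 522 such domains among 16190 combined regions (3.22%), and they held 8.56% of all combined bases, or 2.61 Mb. They were chosen by their width and by the number of lists that touch them, so both are given as a description and neither is itself tested. The tests below compare list coverage of the flanks and coverage by a list left out of the choice. Their sets are still sorted by width and number of lists, with limits given there. The data come from chromatin immunoprecipitation and sequencing (ChIP-seq) of the linker histone H1 in whole wild-type Oregon-R embryos of Drosophila melanogaster at 14 to 16 h of development, with 4 immunoprecipitated libraries and 4 input libraries. All groups share strain, genotype and stage, and whole embryos mix the chromatin of many cell types. The labels do not state whether replicates came from separate embryo collections, and their spread may be partly technical.

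Linker histone H1 binds the nucleosome where DNA enters and leaves it, together with the linker DNA between nucleosomes, and helps chromatin fold into more compact forms. In Drosophila, H1 is known for its part in heterochromatin and in keeping transposable elements silent. The coordinates are those of FlyBase r5, in which 2L, 2R, 3L, 3R, 4 and X are the assembled chromosome arms, the Het sequences are assembled pieces of heterochromatin and U is unplaced sequence. Genes and DNA sequence at the domains were not analysed here.

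The replicate lists held 2820, 2185, 2886 and 3410 regions for replicates 1 to 4, with median widths between 1510 and 1541 bp. They held 25 regions of 4000 bp or more between them, against 789 in the combined list. Of these 25, 10 touched one of the domains, 11 touched a wide combined region with 3 or 4 lists, and 4 touched narrower combined regions alone. Read depth is unknown, so a list without a region at a domain does not show that H1 was absent from it.

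Few lists per domain did not set these domains apart from combined regions in general. At most 2 lists touched 96.4% of all combined regions and 0 lists touched 55.8% of them, whereas 484 of the 522 domains were touched by at least 1. By number of lists, 38 domains had 0, 185 had 1 and 299 had 2, where exactly 1 list touched 30.2% of all combined regions, exactly 2 touched 10.5% and 3 or 4 touched 3.56%. Regions of 4000 bp or more made up 4.87% of the combined list. The mean number of lists was 1.5 per domain, 0.37 per region under 2000 bp and 3.30 per wide region with 3 or 4 lists, and a wide region is touched more readily than a narrow one. Of the 789 wide combined regions 66.2% were such domains. That share was 77.6% among the 268 regions from 4000 to below 4500 bp and 21.1% among the 38 of 8000 bp or more. The domains had a median width of 4725.5 bp, with quartiles of 4266.5 and 5426.75 bp and a highest value of 10581 bp. Their authors' score, a positive value per region used here for rank within the combined list, lay at a median rank of 54.2% from the bottom, against 47.8% for regions under 2000 bp and 61.5% for wide regions with 3 or 4 lists. The domains were therefore wide regions of middling score.

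The edges of the definition were close on both sides. The narrowest domains, 2R 12370530-12374531, U 209753-213755 and 3R 5012656-5016658, spanned 4002, 4003 and 4003 bp. Combined regions of 3999, 3998 and 3996 bp, at 3L 18598523-18602521, X 15157972-15161969 and 2L 13709481-13713476, fell just outside and were touched by 2, 1 and 1 lists. The 299 domains with 2 lists had a median width of 4875 bp, and the 188 wide regions with 3 lists, which fell just outside, had 5382 bp.

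The domains lay mostly on the large autosomal arms. Arm 3R carried 136, 2L 121, 3L 103, 2R 58 and X 33, and the Het sequences together carried 57 and U 14. Chromosome 4, 2LHet and YHet carried 0, on 52, 30 and 26 combined regions. Per length, 2RHet (6.99 per Mb), 3RHet (6.75) and 3LHet (5.87) held the most among sequences with 10 or more domains, followed by 2L (5.26), 3R (4.87), 3L (4.20) and 2R (2.74). X and U held 1.47 and 1.39 per Mb. These densities follow the number of combined regions in part: domains made up 3.49% of the combined regions of 2L, 2R, 3L and 3R, 4.34% of those of the Het sequences, 1.63% of those of X and 1.69% of those of U. X and U differed in another respect: 78.6% of the 42 wide combined regions of X were domains and 51.9% of the 27 of U, against 66.2% over all sequences. Sequence lengths were not corrected for assembly gaps or repeats.

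Along the arms the domains were spread widely, with a few crowded stretches. Of 122 windows of 1 Mb, shorter at the arm ends, on 2L, 2R, 3L, 3R and X, 14 held no domain, the median was 3, and 4 windows held 10 or more. Those with no domain included the short end windows 2L 23000001-23011544 (11544 bp) and 2R 21000001-21146708 (146708 bp). The 4 windows with 10 or more were 2L 17000001-18000000 with 15 domains, 2L 9000001-10000000 with 13, 3R 16000001-17000000 with 11 and 3R 3000001-4000000 with 11. They held 11.1% of the 451 domains on these arms in 3.36% of the length. Windows rich in domains were also densely covered by combined regions, from 29.1% of bases upwards in those 4 windows, while windows with no domain were covered at 21.5% or less. Across windows, the short end windows included, the number of domains and the covered share had a Pearson's r of 0.73 and a Spearman's rho of 0.73. Domain bases are part of the covered share and neighbouring windows share chromatin blocks, and r and rho are therefore given without a p. The dense block of 2L between 15 and 18 Mb held 27 domains, and that of 3R between 23 and 25 Mb held 16, or 22.3% and 11.8% of the domains of their arms. Crowding there was not particular to domains. By 1 Mb window, the 2L block held 6, 6 and 15 domains beside 7, 5 and 14 wide regions with 3 or 4 lists. The 3R block held 8 and 8 domains beside 11 and 7 such regions.

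The ends of the arms differed from each other. The 2 Mb next to the centromere held 15 domains on 3L (7.5 per Mb, against 4.08 in the body of the arm) and 6 on X (3 against 1.39). On 2L and 3R the same stretch held 9 and 5 domains, 4.5 and 2.5 per Mb, against 5.40 and 5.18 in the body, and on 2R it held 6, or 3 per Mb against 2.81. Over the 5 arms together the centromere-near stretches held 4.1 domains per Mb. The outermost 1 Mb of the 5 arms held 7 domains in all (1.4 per Mb), with 0 on 3L and X, against 3.87 per Mb between the ends.

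The domains had close neighbours. The nearest other combined region lay at a median of 607.5 bp, with quartiles of 216 and 1275 bp, against 1138 bp for the 11747 regions under 2000 bp and 419 bp for the 267 wide regions with 3 or 4 lists. A neighbour within 1000 bp was found for 354 of the 522 domains (67.8%) and for 46.5% of the regions under 2000 bp, and on both sides for 21.3% and 10.5%. The median was shorter at domains than at narrow regions on all 9 sequences with 10 or more domains, with 387 against 1012 bp on 2L as one of the wider differences and 676 against 689.5 bp on 3RHet as the smallest. When combined regions were joined across gaps of at most 1000 bp, a domain belonged to a chain of 7864.5 bp at the median and a region under 2000 bp to one of 1897 bp. Close neighbours were not particular to domains. The 3654 regions of 2000 to 3999 bp had a median distance of 662.5 bp, and 61.3% of them had a neighbour within 1000 bp. The combined list chose the domains, so these distances are not tested.

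**Figure D1:**
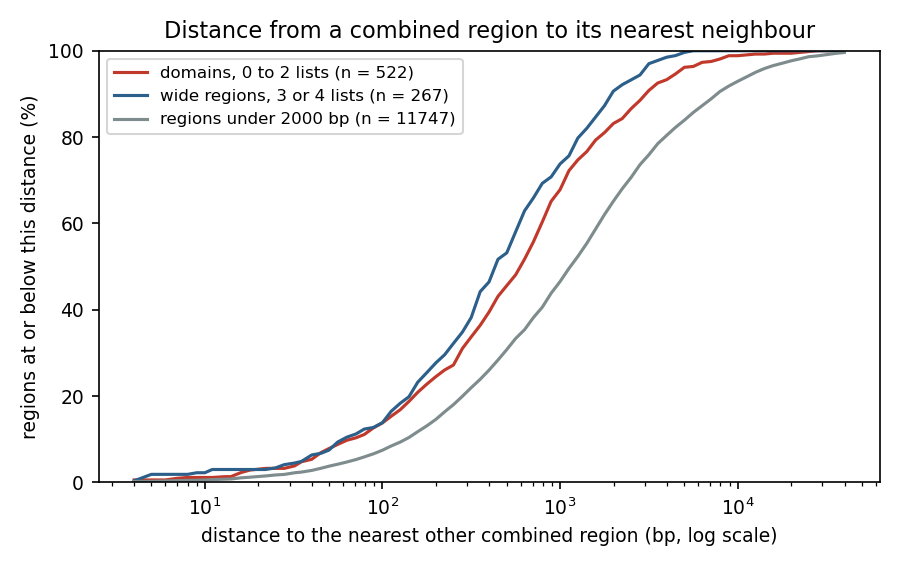
Share of regions (y axis, %) whose nearest other combined region lies at or below a given distance (x axis, bp, log scale), for the domains, the wide regions touched by 3 or 4 lists and the regions under 2000 bp. The curve of the domains lies between the other 2 over most of its length, with 67.8% of domains and 46.5% of narrow regions at 1000 bp or less.

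The extremes of spacing show the range. The closest pair of domains, 2L 4735065-4741468 and 2L 4741473-4747645, was separated by 4 bp, and each was touched by replicate 1 and by 1 further list, replicate 4 for the first and replicate 2 for the second. Together they form a nearly unbroken stretch of combined regions 6404 and 6173 bp wide. The most isolated domain, 2R 4967973-4972110, lay 27178 bp from any other combined region. Regions of replicates 3 and 4 nevertheless covered 63.5% and 35.6% of it. Domains also followed each other: 185 of the 522 (35.4%) lay in runs whose members were within 20 kb of the next. Of these runs, 59 had 2 domains, 14 had 3, 5 had 4 and 1 had 5. Runs of other regions are not given here, so such runs are not shown to be particular to domains.

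The run of 5 domains spanned 59844 bp at 2L 2280083-2339926. Combined regions covered 73.2% of it and the domains 42.5%, while replicates 1 to 4 covered 12.5%, 8.32%, 7.70% and 24.2%. Its domains were 4044, 5408, 6064, 4064 and 5883 bp wide. Replicate 4 touched 4 of them, replicate 1 touched 3, replicate 3 touched 1 and replicate 2 touched none. The regions of replicate 2 in this stretch thus lay between the domains, not in them.

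The sequence around the domains was densely covered as well, in the combined list and in each replicate list. Within 20 kb on each side, 44.1% of bases lay in other combined regions, against 29.3% around regions under 2000 bp and 49.8% around wide regions with 3 or 4 lists. A median of 9 separate stretches of combined regions reached into the flanks of a domain and 6 into those of a region under 2000 bp. The flanks of domains were denser on 8 of the 9 sequences with 10 or more domains, for example 51.4% against 33.0% on 2L and 35.5% against 24.4% on X. The exception was 3RHet, at 32.8% against 37.3%. Over all sequences, the flanks of regions of 2000 to 3999 bp lay between those of domains and of narrow regions. They were covered at 39.4% by the combined list and at 6.90% ± 1.25 by the replicate lists (SD, n = 4).

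The replicate lists gave the same order. Regions of replicates 1 to 4 covered 8.04%, 5.96%, 8.21% and 9.81% of the flanks of domains. Around regions under 2000 bp they covered 4.56%, 3.60%, 4.84% and 5.63%. Each list was denser around domains, and the 2 sets of values did not overlap. The means were 8.00% ± 1.58 and 4.66% ± 0.84 (SD, n = 4), a 1.71-fold difference that ran from 1.66 to 1.76 over the lists, with a log2 ratio of 0.78 ± 0.04 (SD, n = 4), positive in 4 of 4. Compared with narrow regions of the same 1 Mb window, which takes out differences between such windows, the ratio was 1.46. Around wide regions with 3 or 4 lists the replicates covered 9.60% ± 1.98 (SD, n = 4), more than around domains in 4 of 4 lists, with a log2 ratio of -0.26 ± 0.05 for domains over these regions. Replicate regions that touch a domain, which the choice used, can reach into its nearest flank, with 214 of 928 crossing an edge. Between 6 and 20 kb from the edge, out of reach of any such region, the fold over regions under 2000 bp was 1.72 and the log2 ratio to wide regions with 3 or 4 lists was -0.20 ± 0.04 (SD, n = 4), negative in 4 of 4. This setting was added after the data were seen. The 2 sets of wide regions differ by rule in how many of these same 4 lists touch them. Dense stretches of a list can extend beyond 6 kb. The sign of the ratio to wide regions with 3 or 4 lists may thus follow from the choice, also from 6 kb outward. Its p is no support for a difference. For both ratios, in the whole flank and from 6 kb, p was 0.125 in a two-sided exact test that flips signs (0.167 after adjustment over 4 results in the whole flank). No smaller p is possible with 4 replicates, and neither ratio could pass 0.05.

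**Figure D2:**
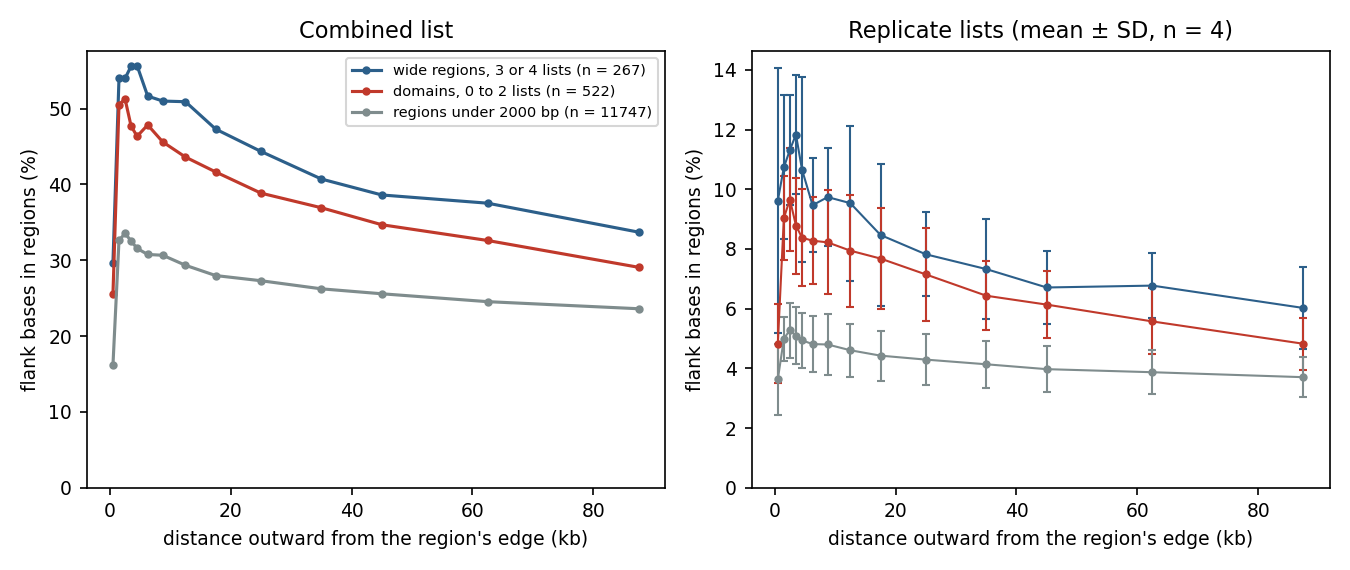
Share of flank bases in regions (y axis, %) by distance outward from the edge of a region (x axis, kb), in the combined list (left) and in the replicate lists (right, mean ± SD over 4 lists). Coverage around domains in the combined list was 51.3% at 2 to 3 kb and 29.1% at 75 to 100 kb, and it lay above that around regions under 2000 bp at each distance plotted.

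The denser surroundings reached far beyond the nearest neighbours. Between 75 and 100 kb from the edge, combined regions covered 29.1% of bases around domains, 23.6% around regions under 2000 bp and 33.7% around wide regions with 3 or 4 lists. The replicate lists covered 4.83% ± 0.87, 3.71% ± 0.67 and 6.02% ± 1.36 there (SD, n = 4). In the first 1000 bp, combined coverage was low around all 3 sets, at 25.5%, 16.2% and 29.7%.

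Among wide regions, denser flanks went with more lists. The lists that sorted these regions are the same lists measured in the flanks. Where lists are dense, more of them are likely to touch a region, so this order is a description only. Replicate coverage of the flanks was 6.16% ± 1.46 around the 38 domains with 0 lists, 7.71% ± 1.57 around the 185 with 1 list and 8.42% ± 1.64 around the 299 with 2 lists (SD, n = 4). It was 9.54% ± 2.21 and 9.77% ± 1.55 around wide regions with 3 and 4 lists. The first step, from 0 lists to 1, was about as large as the SD over lists, and the later steps were smaller than it. The same 4 lists gave every value, so that SD includes differences in level between lists. It does not measure the spread of a step, which was not computed list by list. Median width followed the same order, from 4352.5 bp through 4646 and 4875 bp to 5382 and 5492 bp, so width and flank density move together here and their parts were not separated.

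Which lists touched the domains was uneven. Replicate 4 touched 312 domains (59.8%), replicate 1 touched 249 (47.7%), replicate 3 touched 135 (25.9%) and replicate 2 touched 87 (16.7%), where these lists touched 20.0%, 16.5%, 14.7% and 11.3% of all combined regions. Of the 185 domains with 1 list, replicate 4 was that list in 83 and replicate 1 in 74, against 18 for replicate 3 and 10 for replicate 2. Of the 299 with 2 lists, 113 (37.8%) had replicates 1 and 4, 66 had 3 and 4, 50 had 2 and 4, 43 had 1 and 3, 19 had 1 and 2, and 8 had 2 and 3. Among the 533 regions under 2000 bp with 2 lists, replicates 1 and 4 were the pair in 22 (4.13%), and among the 860 of 2000 to 3999 bp in 219 (25.5%).

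**Figure D3:**
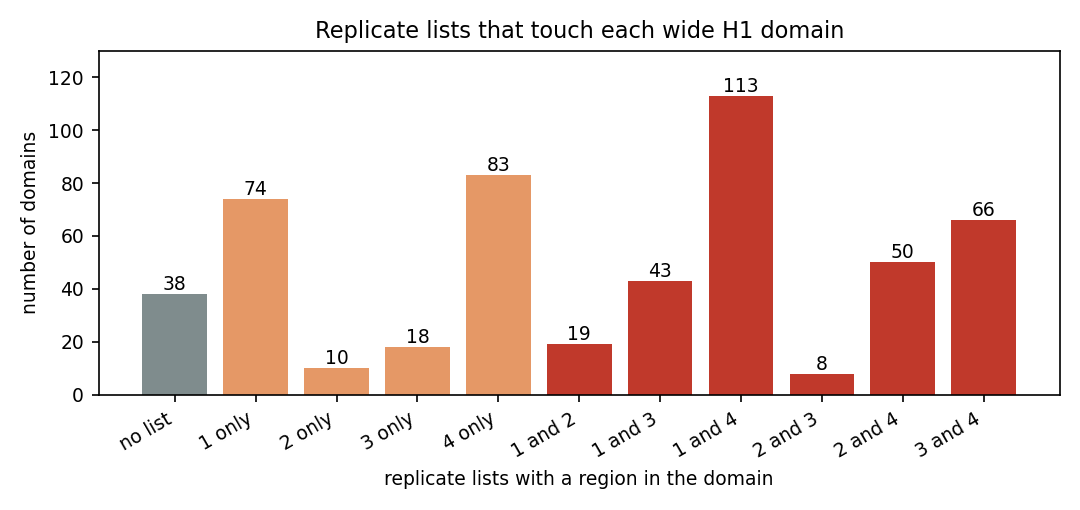
Number of domains (y axis) by the replicate lists that touch them (x axis), over all 522 domains. Replicates 1 and 4 alone or together account for the 3 tallest bars, at 74, 83 and 113 domains, and 38 domains are touched by no list.

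The weight of replicates 1 and 4 was larger in wide regions than in narrow ones. They touched, on average, 9.60% of the regions under 2000 bp against 9.09% for replicates 2 and 3, a ratio of 1.06. The ratio was 1.78 at 2000 to 3999 bp and 1.68 over all 789 wide regions, where the choice by number of lists plays no part. In the domains it was 2.53, at 53.7% against 21.3%, and in the wide regions with 3 or 4 lists it was 1.21, at 90.3% against 74.5%. The split of replicates 1 and 4 against 2 and 3 follows the counts of touched domains above, so these ratios are a description and not independent of those counts. The sources used here do not say how the authors combined the libraries, and its part in this difference was not tested.

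Replicate regions filled the domains in pieces. Of the 2.61 Mb in domains, 49.1% was covered by no list, 42.0% by 1 and 8.86% by 2. Any list covered 50.9%, against 26.7% of the bases of regions under 2000 bp and 75.3% of those of wide regions with 3 or 4 lists. In the 185 domains with 1 list that list covered a median of 37.5% of the domain, and in 12 of them at least 75%. In the 299 with 2 lists the lists together covered a median of 63.9%, and at least 75% in 82. By list, replicates 1 to 4 covered 19.9%, 4.90%, 8.73% and 26.3% of domain bases and 8.25%, 4.85%, 6.74% and 9.97% of the bases of regions under 2000 bp. Per base, domains were thus covered more than narrow regions by replicates 1, 3 and 4 and about equally by replicate 2, although the choice caps the number of lists. Such coverage was not particular to domains. In regions of 2000 to 3999 bp replicates 1 to 4 covered 19.2%, 7.65%, 10.6% and 24.3% of bases, and any list covered 49.3%.

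A list usually placed 1 region in a domain. Of 783 combinations of a domain and a list that touched it, 644 had 1 region, 133 had 2 and 6 had 3, and no replicate region reached beyond both ends of a domain. The regions touching domains had median widths of 1653, 1511, 1610.5 and 1630 bp in replicates 1 to 4, against 1537.5, 1510, 1524 and 1541 bp in the whole lists. They were of ordinary score, with 49.5%, 48.9%, 47.4% and 55.7% at or above the median of their list. Of 928 overlaps, 714 (76.9%) were regions lying wholly inside a domain. In replicates 1 and 4 that share was 85.0% and 81.3%. In replicates 2 and 3 it was 63.0% and 59.0%. Regions that crossed an edge reached out by a median of 110 and 81 bp in replicates 1 and 4, and by 564.5 and 579.5 bp in replicates 2 and 3.

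Within a domain, coverage was higher in the middle. The middle 20% of the width was covered at 23.8%, 4.75%, 9.50% and 30.3% by replicates 1 to 4, and the outer 10% on each side at 10.1%, 4.15%, 7.13% and 14.5%. All 4 lists were higher in the middle, by little in replicate 2. A list of regions that mostly lie wholly inside a domain is bound to be lower at the edges, so this is a description of the tiling.

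**Figure D4:**
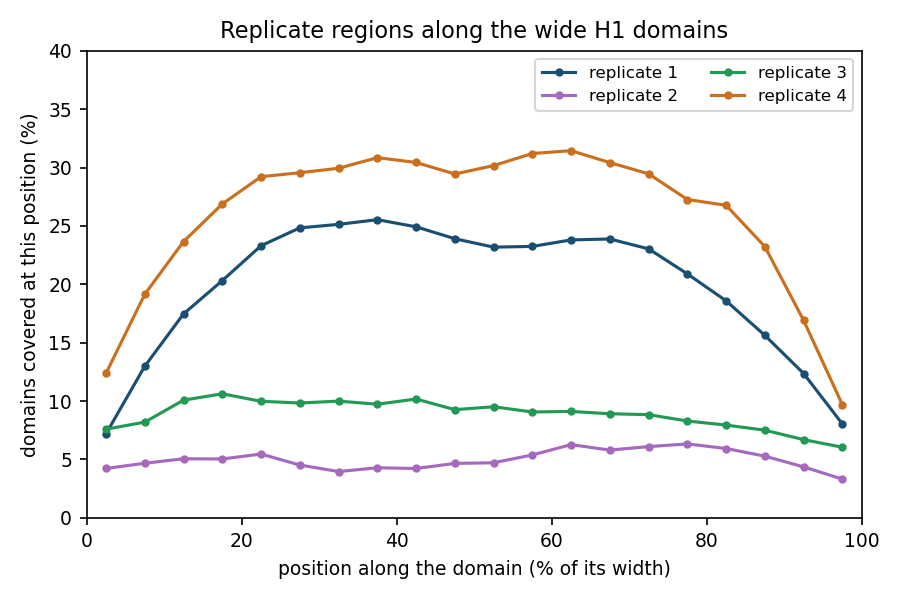
Share of the 522 domains covered by each replicate list (y axis, %) along the domain from its lower to its higher coordinate (x axis, % of the width, 20 equal bins). Replicates 1 and 4 rise to between 20 and 32% away from the edges, while replicates 2 and 3 stay below 11% throughout.

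Where 2 lists touched a domain, their regions met in most cases. Their regions overlapped each other in 221 of the 299 domains (73.9%), with a median of 1155 bp in common, and 24.2% of the covered bases were in both lists. In the other 78 domains the regions of the 2 lists were separated by a median of 835 bp, from 2 to 7957 bp. Among regions of 2000 to 3999 bp with 2 lists 82.7% had overlapping replicate regions, and among those under 2000 bp 92.1%, where a narrow region leaves less room for regions that do not meet. The pair of replicates 1 and 4 overlapped in 87 of 113 domains, and the rare pair of replicates 2 and 3 in 4 of 8. Replicate regions touching domains had a median width of 1622.5 bp, against 4875 bp for the domains with 2 lists. Regions of that size can often meet by position alone. The share expected from placement was not computed, so these overlaps do not show that the lists agree.

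A list that did not touch a domain tended to have a region closer to it than was the case at narrow regions. The nearest region of such a list lay at a median of 6922, 7940, 6025 and 5299.5 bp for replicates 1 to 4. For regions under 2000 bp the medians were 13779, 18073, 13909 and 11171 bp, longer in 4 of 4 lists. Within 5 kb, an untouching list had a region at 42.9% ± 4.6 of domains and 25.8% ± 3.8 of narrow regions (SD, n = 4). For wide regions with 3 or 4 lists that share was 55.1% ± 14.9 (SD, n = 4). It was higher than for domains except in replicate 2, at 35.4% against 37.0%.

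A further comparison took one list out of the choice. For each replicate in turn, wide combined regions were sorted by how many of the other 3 lists touched them, and the bases covered by the list left out were measured. In wide regions touched by 0 or 1 of the other lists, replicates 1 to 4 covered 26.4%, 8.73%, 13.7% and 30.3% of bases. In wide regions touched by 2 or 3 of the other lists they covered 24.4%, 11.4%, 15.6% and 30.6%. Both sets overlap almost fully, with means of 19.8% ± 10.2 and 20.5% ± 8.6 (SD, n = 4) and a log2 ratio of -0.12 ± 0.22, negative in 3 of 4 replicates. Flipping signs gave an exact p of 0.375 (0.375 after adjustment). That p does not show the sets to be alike. Nor do the sets separate domains from other wide regions. All regions of the first set were domains, but the second also held domains with 2 lists that the list left out did not touch. In wide regions with 3 or 4 lists, chosen with all lists, replicates 1 to 4 covered 34.4%, 19.7%, 24.9% and 37.3%. Regions under 2000 bp with 0 or 1 of the other lists were covered at 8.31%, 4.68%, 6.57% and 10.1%, lower than the first set in 4 of 4 replicates. The difference was 2.47-fold, from 1.86 to 3.17 over the replicates, with a log2 ratio of 1.30 ± 0.38 (SD, n = 4) and an exact sign-flip p of 0.125, or 0.167 after adjustment, again the lower limit of the test. The combined list was made from the set of replicates, so the list left out still had a part in which regions are wide.

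**Figure D5:**
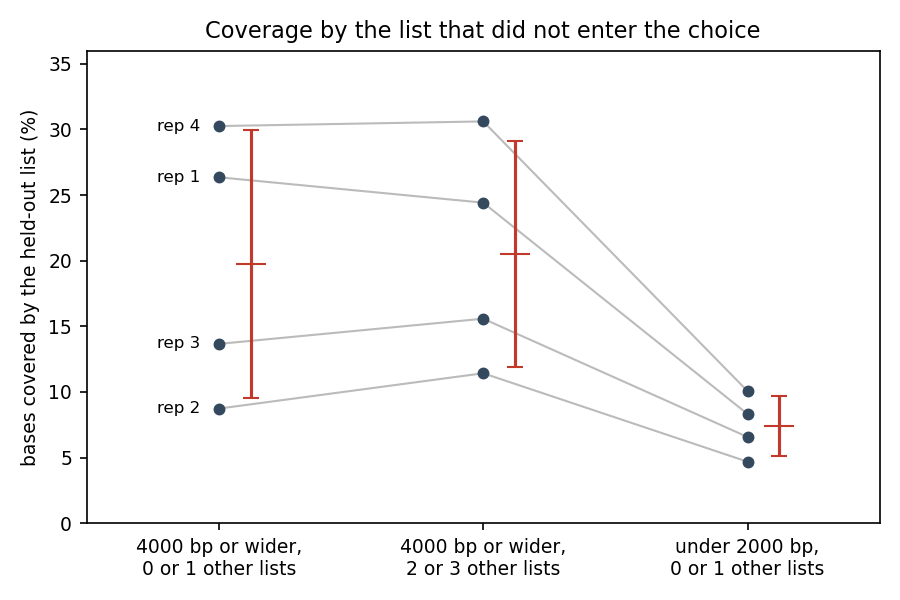
Bases covered by the replicate list that did not enter the choice (y axis, %) in wide regions touched by 0 or 1 and by 2 or 3 of the other 3 lists and in regions under 2000 bp touched by 0 or 1. Points are the 4 replicates, joined by lines, and bars are the mean ± SD: 19.8%, 20.5% and 7.41%.

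Single domains show how differently the lists filled them. The widest, 2RHet 693717-704297, spanned 10581 bp, of which replicate 1 covered 12.4% and replicate 3 6.16%, with 0 bases in both, so that any list covered 18.5%. On 3R 11599398-11609073 (9676 bp) replicates 1 and 4 covered 24.7% and 47.9%, and on 3R 3244504-3253937 (9434 bp) replicates 2 and 4 covered 19.3% and 45.8%. The former had sparse flanks, with 26.4% of bases in combined regions, and the latter dense ones, with 68.2%. Wide domains thus occurred in both kinds of surroundings.

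Arm 2L held 6 of the 10 widest domains, 4 of them between positions 14921043 and 17912872. On 2L 16019594-16028275 (8682 bp) replicates 3 and 4 covered 21.4% and 40.8%. On 2L 14921043-14929121 (8079 bp) replicates 1 and 4 covered 39.3% and 16.8%, and its neighbour 2L 14941524-14949451 (7928 bp) was covered at 37.3% by replicate 4 alone. On 2L 17904916-17912872 (7957 bp) replicates 1 and 3 covered 37.3% and 58.0%. These 4 domains had flanks of which 62.5% to 74.3% lay in combined regions, above the upper quartile of all domains, 57.5%. The others on 2L were 3980897-3989566 (8670 bp), at 55.5% by replicate 1 and 38.5% by replicate 4, and 21914383-21923028 (8646 bp), at 15.1% by replicate 1 alone with flanks at 27.9%. The remaining one of the 10, 3R 14357732-14365976 (8245 bp), had 38.9% in replicate 1 and 15.4% in replicate 3 with no base in both.

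The widest domain of the other sequences was narrower, and replicate 1 or 4 or both touched each of them. On 3L 19297499-19305077 (7579 bp) replicate 1 alone covered 73.5%, with a single region of 5574 bp, the widest of that list, and flanks at 16.6%. On 2R 6281245-6288791 (7547 bp) replicates 1 and 4 covered 26.8% and 61.2% with 80 bp in both, so that they tiled the domain side by side to 86.9%. On X 6314236-6321039 (6804 bp) and XHet 142273-146810 (4538 bp) replicate 1 alone covered 44.8% and 40.1%. On 3RHet 706807-713550 (6744 bp) replicate 4 alone covered 49.5%. On 3LHet 1319672-1326232 (6561 bp) replicates 1 and 4 covered 38.1% and 47.8%, and on U 3549569-3555874 (6306 bp) replicates 2 and 4 covered 23.2% and 73.5%.

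The 38 domains that no list touched (7.28% of the domains, against 55.8% of all combined regions) were the narrowest by median width, at 4352.5 bp and a widest of 6411 bp. They lay on 2L (10), 3L (9), 3R (6), X (5), 3LHet (3), 2R (2), U (2) and 2RHet (1). The widest were 3L 7656011-7662421 (6411 bp), 2L 10086012-10091856 (5845 bp) and 3L 9973039-9978458 (5420 bp), with flanks at 27.8%, 63.8% and 45.1%. Untouched domains were seldom far from a replicate region: the nearest of any list lay at a median of 1712.5 bp, within 5 kb for 32 of the 38 and within 20 kb for all 38. For the 8003 regions under 2000 bp with 0 lists the median was 3768 bp, with 57.1% within 5 kb and 13.1% beyond 20 kb. The highest score of all domains, 1.01, belonged to one of the untouched ones, U 9169137-9173570 (4434 bp), whose flanks were covered at 8.83% and whose nearest combined region lay 8458 bp away. The next were X 22123015-22127282 (4268 bp), with a score of 0.55 and replicates 1 and 3 covering 57.2% and 44.8%, and the untouched X 19868858-19872865 (4008 bp), also with a score of 0.55.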

How the data were processed

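The submitters' processing notes name Bowtie 0.12.7 as the aligner. Coordinates are FlyBase r5, per the file headers. The sources used here do not name the region caller, its thresholds or the way replicates were combined. The authors deposited region lists in which each region has coordinates and a score. The score has no stated scale and was used for rank within a list. The lists hold no read counts, so depth is unknown and no counting interval was computed. The input libraries have no values here.

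Overlaps, gaps and covered bases were computed with Python 3.11.15, numpy 2.4.6 and pandas 2.3.3, and checked base by base on simulated lists. Overlap of 1 bp counted as touched, flanks were 20 kb on each side, cut at sequence ends, and distances are bases between edges. Log2 ratios per replicate were tested by an exact permutation of their signs (two-sided), with Benjamini-Hochberg adjustment over 4 results. The domains and the lists of regions named (the 10 widest, the widest of each sequence, the 3 widest with 0 lists, the 3 of highest score, the closest pair, the most isolated, the longest run, and those next to the width threshold) were chosen by rules written with earlier results of these data known. Alternatives were other widths, flanks, overlaps, scores, comparison regions, flanks from 6 kb outward (added afterwards), major arms alone and leaving out each replicate. Gene features were planned but not run, because the gene table at hand (Release 6) is on a different build.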

Additional observations from a re-analysis of the deposited data

How the results depend on the processing

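Of 53 recomputed values 47 kept to their side or range and 6 moved. A tested ratio kept to its side if its sign stayed the same. For the number of domains the range was broad: 732, without the lower-scoring replicate regions, counted as kept against 522. For the distance and the coverage values without a test, the range treated the 522 domains as independent replicates, which they are not. The split into kept and moved is therefore only a rough guide. The number of domains is set by its thresholds: it was 1483 from 3000 bp, 202 from 5000 bp and 290 when the lower-scoring combined regions were left out, each of which changes how many regions can qualify by construction. It was 542 when touching needed 500 bp, and 628 to 689 without 1 replicate, when at most 2 of 3 lists had to touch. Without combined regions below the median score of their list, the median distance to a neighbour became 2362.5 bp, since fewer regions remain. Without replicate regions below the median of theirs, any list covered 32.9% of domain bases. Against narrow regions of the same 1 Mb window the ratio of combined coverage in the flanks was 1.33, from 44.1% against 33.1%. None of 30 alternatives reversed a tested ratio. Where a ratio had the same sign in all 4 lists, leaving out 1 replicate could not reverse it. Those alternatives therefore say nothing about its direction. Without 1 replicate the log2 ratios ran from 0.76 to 0.79 and from -0.28 to -0.24 for the flanks against narrow and against wide regions, and from 1.18 to 1.44 and from -0.20 to -0.03 for the list left out, against narrow regions and between wide ones. No paired analysis was possible because the groups that share replicate numbers are H1 and input, and input values were not analysed here; the tested ratios compare regions within each list. Unknown depth limits every count of lists.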

Other observations

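In 17 measures checked over the 4 replicates, 0 had a replicate far from the other 3, where chance would give 0.85. With 4 values, a split of 2 against 2, as in the percent of domains touched, cannot be found in this way.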
